A study of Mus musculus with 87 samples.

Results

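Mouse embryonic stem cells that lacked the 3 Polycomb-like proteins and EPOP (Pcl1-3 + Epop KO, 3 RNA libraries) were compared with wild-type cells (WT, 3 RNA libraries). These 6 libraries were chosen by their genotype label, out of 24 RNA libraries and 87 samples in the series, and the other 63 samples are chromatin immunoprecipitations. Each library has whole-number read counts for the same 55450 Ensembl gene IDs, of which 14650 had enough counts to be tested. Per the labels' protocols all cells were kept on gelatin in 2i medium, and the labels name no further treatment of any group.

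Polycomb repressive complex 2 (PRC2) methylates lysine 27 of histone H3 and is known for keeping developmental genes silent in stem cells. Its core, which includes SUZ12, joins with different accessory subunits. One form holds a Polycomb-like protein (PCL1, PCL2 or PCL3, from the genes Phf1, Mtf2 and Phf19), which binds CpG-rich DNA, and can also hold EPOP, which links the complex to Elongin B and C. The other form holds JARID2 and AEBP2. The comparison therefore removes the Polycomb-like proteins and EPOP from the first form and leaves JARID2, AEBP2 and the core genes in place. Apart from WT, 6 genotypes with 3 libraries each served as reference points. In 2 of them the Polycomb-like genes are intact, namely Suz12 KO and Jarid2 + Aebp2 KO. The other 4 lack them, alone (Pcl1-3 KO) or together with further genes. These are Pcl1-3 + Jarid2 + Aebp2 + Epop KO, the same genotype with Epop intact (Pcl1-3 + Jarid2 + Aebp2 KO), and Pcl1-3 + Jarid2 KO.

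The strain label changes with the genotype (129B6F1 for WT, 129B6F4 for Pcl1-3 + Epop KO), so strain and genotype cannot be told apart as labelled. Its last digit goes up by 1 from genotype to genotype, and whether that is an error of a spreadsheet fill is not known. The labels do not say whether a genotype is 1 clone, or whether its libraries came from separate cultures. The p-values reflect the spread within genotypes over all 24 libraries of the fit, and that spread may be technical. The files give no gene symbols, and the results below are by Ensembl ID. The RNA of the 4 targeted genes, the markers of stem cells and the markers of other cell types were therefore not analysed here.

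Total counts were 13290330, 12632199 and 11643917 in Pcl1-3 + Epop KO and 10550010, 10148155 and 14040580 in WT. Between 12154 and 12639 IDs reached 1 CPM (counts scaled to a common library size) in the knockout libraries, and between 12281 and 12397 in WT. These numbers use the library totals alone. The CPM values below also use factors from the trimmed mean of M-values method (TMM). The knockout libraries varied more among themselves than those of any other of the 8 genotypes: the median standard deviation of log2 CPM over IDs was 0.284, against 0.157 in WT and at most 0.246 elsewhere. The main fit pools the spread over all 24 libraries, which can understate the spread of the knockout. Replicate 3 of the knockout stood apart. The chi-square per degree of freedom between libraries was 67.8 and 45.8 for replicate 3 with replicates 1 and 2, and 16.4 for replicates 1 and 2, while WT pairs gave 6.25 to 19.6. No 2 of these libraries agreed within sampling noise. The deviation of replicate 3 was partly shared across the series. It correlated above 0 with that of the same-numbered library in every other genotype, least in WT (0.0852) and most in Pcl1-3 KO (0.71). Fits without this library alone keep the other libraries numbered 3, so they can unbalance a shared shift.

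The 4 targeted genes were located in the RefSeq table of assembly GRCm38.p6 (the mm10 coordinates) and compared with the deposited peak lists for SUZ12, JARID2 and PCL2. Phf19 (chromosome 2, 34893752 to 34914353) carried a SUZ12 peak of 2353 bp (34912761 to 34915113) across 1 end of the gene. A JARID2 peak (34912779 to 34914308) and a PCL2 peak (34912675 to 34915026) lay over the same end, and 2 further PCL2 peaks lay inside the gene. Epop (chromosome 11, 97627387 to 97629716) had 1 PCL2 peak of 736 bp over an end and neither a SUZ12 nor a JARID2 peak within 1 kb. Phf1 (chromosome 17, 26933127 to 26937908) and Mtf2 (chromosome 5, 108065660 to 108109219) had none of the 3 kinds of peak within 1 kb. Phf19 was thus the 1 gene of the 4 with a peak of all 3 proteins, one of which, PCL2, is the product of Mtf2. The lists have no replicates and no scores, and these positions are a description.

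The main question was which transcripts differ between cells without PCL1-3 and EPOP and WT cells. Transcript levels rose for 577 IDs and fell for 538 in Pcl1-3 + Epop KO. The 1115 called IDs were 7.61% of those tested, 3.94% risen and 3.67% fallen, by edgeR's quasi-likelihood test at a Benjamini-Hochberg adjusted p under 0.05. The falls were larger than the rises: the median log2 fold change was 0.84 over the risen IDs, -1.25 over the fallen ones and 0.01 over all tested IDs. The counts were lopsided at the extremes. Of the fallen IDs 61 (11.3%) fell over 8-fold and 80 (14.9%) fell between 4 and 8-fold, while 12 risen IDs (2.08%) rose over 8-fold and 42 (7.28%) between 4 and 8-fold. Small changes were more common among the rises, of which 181 (31.4%) were under 1.5-fold, against 90 of the falls (16.7%).

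**Figure D1:**
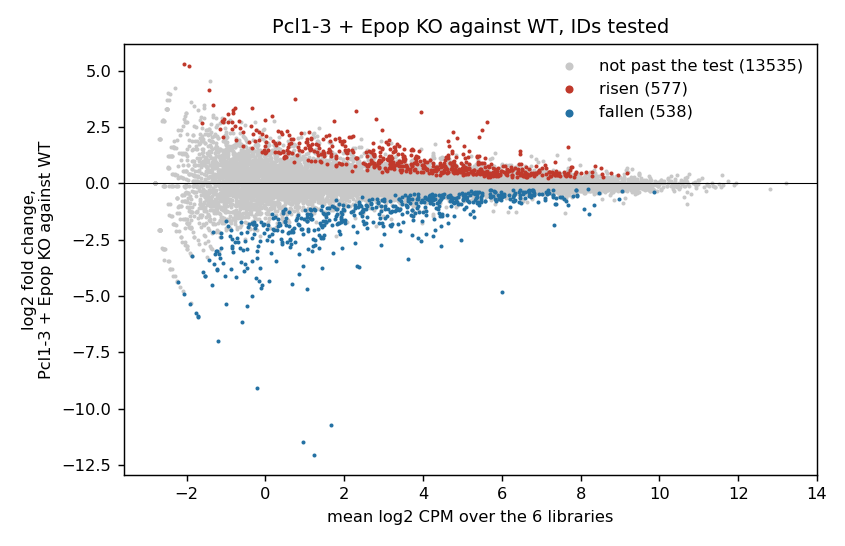
Log2 fold change of Pcl1-3 + Epop KO against WT (vertical axis) against mean log2 CPM over the 6 libraries (horizontal axis), 1 point per tested ID, with the 577 risen IDs in red, the 538 fallen IDs in blue and the rest in grey. Fallen points reach farther from 0 than risen ones, and of the 3 lowest points 2 are the IDs named in the text that have no count in any knockout library.

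The direction of the calls changed with the level of the transcript. Among 3547 IDs with a mean of 0.5 to 5 CPM over the 6 libraries, 131 rose (3.69%) and 190 fell (5.36%). Among 5596 IDs at 5 to 50 CPM the order was the other way, with 288 risen (5.15%) and 231 fallen (4.13%). Above 50 CPM, 149 of 4502 IDs rose (3.31%) and 91 fell (2.02%), and of these only 7 and 5 passed 2-fold. Below 0.5 CPM, 9 of 1005 rose and 26 fell, all of them by over 2-fold. The median size of a called change on the log2 scale was 3.40 below 0.5 CPM and 0.48 above 50 CPM. Changes of highly expressed transcripts were therefore called when small, and those of low transcripts only when large. The difference in direction between levels was not tested.

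Most calls separated the single libraries. The IDs were selected by a test on these libraries, which favours this separation and the differences below. The 3 knockout and 3 WT libraries did not overlap for 553 of the 577 risen IDs (95.8%) and 532 of the 538 fallen IDs (98.9%), against 3752 of all tested IDs (25.6%), of which 1906 were higher in the knockout. Setting each knockout library against the WT library of the same number gave median log2 differences of 0.63, 0.68 and 0.98 for the risen IDs and -1.16, -1.08 and -1.20 for the fallen IDs. The rises were thus largest in replicate 3, the library that stood apart, and the falls were similar in the 3 comparisons.

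The number of calls rested on the libraries in the fit. With only these 2 genotypes fitted, 155 IDs were called, 34 risen and 121 fallen. Without replicate 3 of the knockout 521 IDs were called, 186 risen and 335 fallen, and 173 of the 577 rises and 291 of the 538 falls were still called. Without replicate 1 of the knockout the count was 1831 (1098 risen, 733 fallen), and without replicate 2 it was 811 (450 risen, 361 fallen). Without WT replicates 1, 2 and 3 it was 462 (176 risen, 286 fallen), 704 (301 risen, 403 fallen) and 716 (315 risen, 401 fallen). Every one of the 577 and 538 IDs kept its direction in each of these 6 fits. For most this was fixed beforehand. The groups did not overlap for 553 and 532 of them, so leaving out 1 library could not turn them. Falls outnumbered rises in 4 of the 6 fits, all except those without replicate 1 or replicate 2 of the knockout, so the balance of rises and falls is not settled by these libraries. It also turned with limma-voom (378 risen, 527 fallen) and narrowly with RLE scaling (537 risen, 542 fallen). Among changes over 2-fold falls were the more numerous, 321 against 227 with all libraries, and 237 against 72 without replicate 3 of the knockout. Without replicate 1 of the knockout that order was reversed, at 406 falls and 520 rises over 2-fold.

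**Figure D2:**
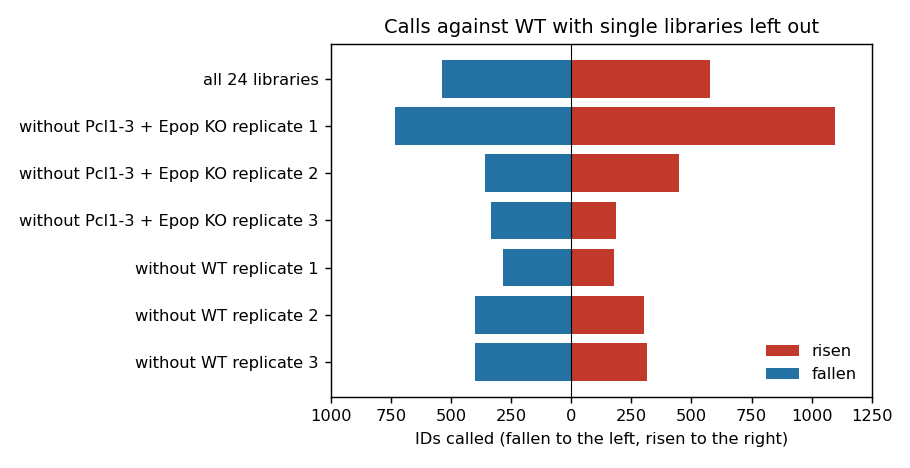
Number of IDs called in Pcl1-3 + Epop KO against WT (horizontal axis), fallen to the left and risen to the right, with all 24 libraries and with 1 library of either genotype left out. Rises range from 176 to 1098 and falls from 286 to 733.

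The 2 largest falls were of transcripts that had no count left. ENSMUSG00000069049.11 had 35.7, 38.5 and 42.5 CPM in the WT libraries (38.9 ± 3.45, SD, n = 3), from 1338 reads in all. It had no read in any of the 3 knockout libraries. Against a floor of 3 counts over the group, which covers counting error only, it was at least 490-fold lower (edgeR quasi-likelihood test, Benjamini-Hochberg adjusted p = 1.97e-08). ENSMUSG00000068457.14 had 28.4, 27.8 and 21.8 CPM in WT (26.0 ± 3.67, SD, n = 3, 871 reads) and again no read in the knockout. It was at least 319-fold lower (edgeR adjusted p = 1.56e-07). For both IDs the WT libraries lay within a narrow range and far from the knockout.

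These transcripts were at or near 0 in all lines labelled as lacking Pcl1-3 and present in the other 3 genotypes. ENSMUSG00000069049.11 stood at 52.2 ± 10.1 CPM in Suz12 KO and 71.2 ± 15.9 CPM in Jarid2 + Aebp2 KO (SD, n = 3 each), which both have intact Pcl1-3 genes. Among the other genotypes without Pcl1-3 it had 2 reads in all in Pcl1-3 + Jarid2 KO and none in the remaining 3. ENSMUSG00000068457.14 stood at 19.6 ± 2.50 CPM in Suz12 KO and 22.6 ± 4.95 CPM in Jarid2 + Aebp2 KO (SD, n = 3 each) and had no read in any of the 5 genotypes without Pcl1-3. In all, 3 IDs had no count in Pcl1-3 + Epop KO and at least 1 CPM in every WT library. These 3 IDs were at 5.78 to 52.2 CPM in Suz12 KO, and no ID showed the converse. The labels do not say whether the 5 genotypes derive from 1 edited Pcl1-3 line, so the loss of the genes and the history of a line cannot be told apart. The files give no positions for these IDs. Whether they lie on a chromosome that a Pcl1-3 line had lost, such as the Y chromosome, was not tested. The 490-fold and 319-fold differences are therefore differences between lines as labelled.

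Among called IDs with at least 1 CPM in a group and no overlap between libraries, the 2 largest rises were of transcripts scarce in WT. Some called IDs below that level had larger fold changes. ENSMUSG00000022941.8 had 0.58, 0.50 and 0.44 CPM in WT (17 reads in all) and 2.05, 2.13 and 16.3 CPM in the knockout (243 reads). The groups did not overlap, but replicate 3 held most of the knockout reads. The log2 fold change was 3.73 (SE 1.00, edgeR adjusted p = 0.0246), and it was 2.05 and no longer called without replicate 3. The call was also lost without any 1 of the 3 WT libraries. In Pcl1-3 KO the same ID had 4.34, 0.44 and 6.53 CPM, so 1 of the 3 libraries there was at the WT level.

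ENSMUSG00000028337.14 rose more evenly. It had 0.10, 0.30 and 0.15 CPM in WT, from 6 reads in all, and 1.83, 1.5 and 2.32 CPM in the knockout (1.88 ± 0.41, SD, n = 3, 70 reads). The log2 fold change was 3.35 (SE 0.63, edgeR adjusted p = 0.00225), and the call remained without any 1 of the 6 libraries. The evidence was weaker in a fit of only these 2 genotypes with a replicate block, at a log2 fold change of 3.34. It stood at 3.45 ± 0.98 CPM in Suz12 KO, 1.93 ± 0.44 in Pcl1-3 KO and 2.23 ± 1.04 in Pcl1-3 + Jarid2 + Aebp2 + Epop KO (SD, n = 3 each). Its lowest knockout means were 0.57 CPM in Jarid2 + Aebp2 KO and 0.60 CPM in Pcl1-3 + Jarid2 KO, with 1.12 CPM in Pcl1-3 + Jarid2 + Aebp2 KO. Every knockout mean thus lay above the WT mean of 0.18 CPM. The rise was not called in Jarid2 + Aebp2 KO or Pcl1-3 + Jarid2 KO (edgeR adjusted p = 0.205 and 0.112).

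**Figure D3:**
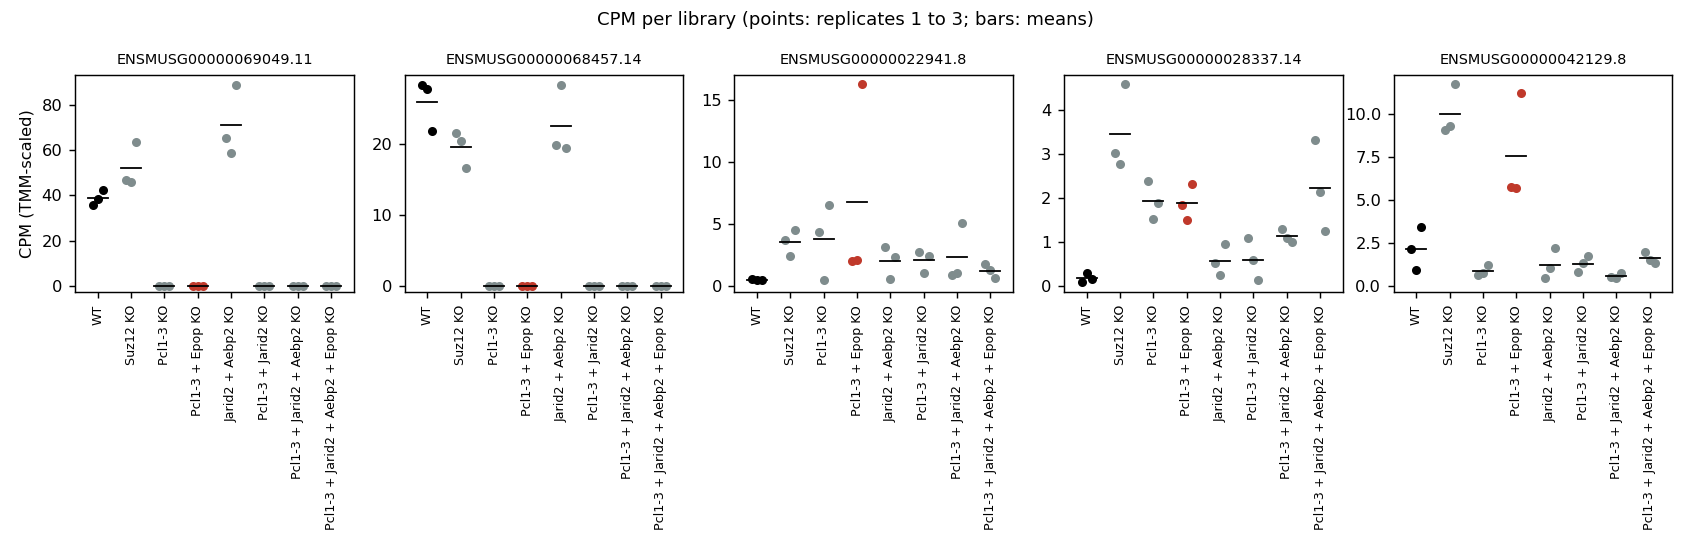
CPM (vertical axes, a separate linear scale for each ID) of 5 IDs in the 24 RNA libraries, as points by genotype with black bars at the means, WT in black and Pcl1-3 + Epop KO in red. The first pair of IDs is at or near 0 in the 5 genotypes without Pcl1-3, and 1 of the 3 red points lies far above the others for ENSMUSG00000022941.8.

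Transcripts that were nearly absent in WT seldom became expressed. An ID was counted as gained when its mean was under 0.5 CPM in WT and at least 2 CPM in the knockout with no overlap between libraries, and as lost in the opposite case. Pcl1-3 + Epop KO gained 2 IDs and lost 31. The counts for the other genotypes against the same WT libraries were 4 gained and 40 lost in Pcl1-3 KO, 4 and 9 in Jarid2 + Aebp2 KO, 15 and 48 in Pcl1-3 + Jarid2 KO, and 8 and 56 in Pcl1-3 + Jarid2 + Aebp2 KO. The genotype that also lacks Epop gained 74 and lost 87, and Suz12 KO gained 272 and lost 14. Loss was thus the more frequent event in Jarid2 + Aebp2 KO and in each of the 5 genotypes without Pcl1-3, and gain the more frequent in Suz12 KO, which was not put to a test. Leaving out replicate 1 of Pcl1-3 + Epop KO gave 15 gained and 51 lost. The gained count, too small to rest on, was 8 without its replicate 2, 0 without its replicate 3, and 3, 8 and 4 without WT replicates 1, 2 and 3.

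The 272 IDs gained in Suz12 KO stayed low in cells that lacked PCL1-3 and EPOP. Their median level was 2.98 CPM in Suz12 KO, where they were selected, 0.27 CPM in WT and 0.35 CPM in Pcl1-3 + Epop KO. In Pcl1-3 + Epop KO 90 of them had a mean of at least 0.5 CPM and 2 (0.735%) reached 2 CPM. The numbers at 2 CPM were 1 in Pcl1-3 KO, 2 in Jarid2 + Aebp2 KO and 31 in Pcl1-3 + Jarid2 + Aebp2 + Epop KO. The 31 IDs lost in Pcl1-3 + Epop KO had a median of 2.82 CPM in WT and 0.21 CPM in that knockout, by their selection. Their median was 5.94 CPM in Suz12 KO, where 27 of the 31 were at 2 CPM or more, and 2.50 CPM in Jarid2 + Aebp2 KO, where 17 were. It was 0.23 CPM in Pcl1-3 KO, where none reached 2 CPM, and 0.41, 0.28 and 0.45 CPM in the other genotypes without Pcl1-3. All these values share the WT libraries used for the selection.

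Further comparisons with WT share its 3 libraries, so their values for the called IDs are set side by side and not counted as support. The 577 risen IDs, with a median log2 fold change of 0.84 in Pcl1-3 + Epop KO, had medians of 0.77 in Pcl1-3 KO, 0.79 in Pcl1-3 + Jarid2 KO, 0.73 with Aebp2 lost as well, 0.75 with both Aebp2 and Epop lost as well, 0.45 in Jarid2 + Aebp2 KO and 0.41 in Suz12 KO. The 538 fallen IDs, at -1.25, had medians of -1.09, -0.90, -1.08, -0.99, -0.45 and -0.09 in the same order. The median near 0 in Suz12 KO is over IDs that went both ways: 25.1% of the 538 rose and 26.2% fell there, where 20.7% and 18.3% of all tested IDs did.

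Loss of Pcl1-3 was also measured in a pair of genotypes that shares no library with the comparison: Pcl1-3 + Jarid2 + Aebp2 KO against Jarid2 + Aebp2 KO. There 1007 IDs rose (6.87%) and 1000 fell (6.83%), by the same edgeR fit. Of the 577 IDs risen in Pcl1-3 + Epop KO, 150 rose in the second pair (26.0%, and 14.9% of the 1007), and 17 fell. Of the 538 fallen IDs, 207 fell in the second pair (38.5%, and 20.7% of the 1000), and 34 rose. The median log2 fold change in the second pair was 0.26 over the risen IDs, of which 71.2% were above 0, and -0.54 over the fallen IDs, of which 27.1% were above 0. Over all tested IDs the median was -0.01, with 48.9% above 0. The shared part was thus larger among falls than among rises, and both shares lay above the background.

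The shares differed with the library left out. Without replicate 3 of Pcl1-3 + Epop KO, 47.3% of 186 rises (88 IDs) and 49.3% of 335 falls (165 IDs) were called the same way in the second pair. Without WT replicate 1 the shares were 40.9% of the rises and 51.0% of the falls. Over the 6 fits with 1 library left out, the lowest shares were 17.9% of rises and 31.4% of falls, both without replicate 1 of the knockout. The second pair differs from the comparison in more than its libraries, since its cells have lost Jarid2 and Aebp2 and kept Epop. The labels do not say whether the genotypes without Pcl1-3 in both contrasts derive from 1 edited line. Loss of Pcl1-3 and the history of a line therefore cannot be told apart in the shared calls either.

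**Figure D4:**
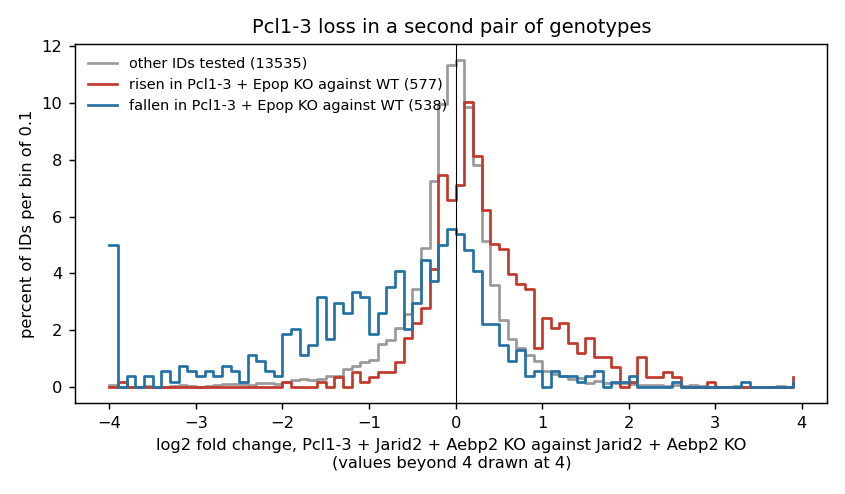
Distribution of log2 fold changes between Pcl1-3 + Jarid2 + Aebp2 KO and Jarid2 + Aebp2 KO (horizontal axis, values beyond 4 drawn at the edge), as percent of IDs per bin, for IDs risen (red, 577) or fallen (blue, 538) in Pcl1-3 + Epop KO against WT and for all other tested IDs (grey). The red line lies to the right of the grey one (median 0.26) and the blue line to the left (median -0.54), with large overlap.

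What the loss of EPOP adds to the loss of PCL1-3 was read from Pcl1-3 + Epop KO against Pcl1-3 KO, which uses no WT library. By edgeR's quasi-likelihood test 1 ID rose and none fell (0.00683% of 14650). At an unadjusted p under 0.05, where a share of 0.05 would be expected with no difference, there were 210 IDs (1.43%). That number was 984 without replicate 3 of Pcl1-3 + Epop KO and 449 without replicate 2 of Pcl1-3 KO, and 180 to 278 without any 1 of the other 4 libraries. DESeq2 called 3 IDs and limma-voom 1. Same-numbered libraries of these genotypes deviated together. However, replicate 1 of Pcl1-3 + Epop KO correlated better with replicate 2 of Pcl1-3 KO (0.39) than with replicate 1 (0.2). With the replicate number as a block, 2 IDs were called, 1 in each direction, and 417 had an unadjusted p under 0.05 (2.85%). The median absolute log2 fold change was 0.10 (0.18 without replicate 3 of Pcl1-3 + Epop KO), against 0.24 in the comparison with WT. The 1115 IDs called against WT had median log2 fold changes of 0.05 (risen) and -0.07 (fallen) here, in a contrast that shares the knockout libraries with that against WT.

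The spread of the libraries sets what this comparison could show. The 95% interval of the fold change lay within 2-fold either way for 11161 IDs (76.2%), and for 11042 of the 12397 with a mean of at least 1 CPM (89.1%). It lay within 2-fold for 819 of the 1115 IDs called against WT. For the remaining IDs a change of 2-fold was not excluded. The intervals use the spread pooled over all 24 libraries. For single IDs they may be too narrow, as Pcl1-3 + Epop KO was more variable. Over all IDs, however, the 1.43% at an unadjusted p under 0.05 lay below 0.05, as when the spread used is too wide. With the replicate block the median SE was 0.154 in place of 0.196, and the share was 2.85%. The near absence of calls thus does not show that Epop loss changed nothing. The root mean square log2 distance between a Pcl1-3 + Epop KO and a Pcl1-3 KO library was 0.365 to 0.754 (median 0.507). Between Pcl1-3 + Epop KO libraries it was 0.486 to 0.882 (median 0.671), and to WT and Suz12 KO libraries the medians were 0.647 and 1.16. By this distance WT libraries, too, were no farther away than Pcl1-3 + Epop KO libraries were from each other, so it does not show that genotypes are alike.

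The 1 called ID is named after its values were seen. ENSMUSG00000042129.8 had 5.71, 5.69 and 11.2 CPM in Pcl1-3 + Epop KO (7.52 ± 3.17, SD, n = 3) and 0.62, 0.73 and 1.24 CPM in Pcl1-3 KO (0.86 ± 0.33, SD, n = 3). The log2 fold change was 3.03 (SE 0.46, edgeR adjusted p = 0.0212). WT stood between them at 2.14, 0.89 and 3.42 CPM, and the rise against WT was 1.77 on the log2 scale (edgeR adjusted p = 0.014). The other genotypes had mean levels of 0.56 to 1.60 CPM, except Suz12 KO, whose 3 libraries had 9.02, 9.3 and 11.7 CPM. Adding the loss of Epop to Pcl1-3 + Jarid2 + Aebp2 KO gave a log2 fold change of 1.51 that did not pass the test (edgeR adjusted p = 0.0804). With the replicate number as a block, this ID was called risen in both contrasts. In the larger knockout 10.4% of all tested IDs rose in that fit. No ID was called against Pcl1-3 KO without replicate 3 of Pcl1-3 + Epop KO, or without any 1 of the 3 Pcl1-3 KO libraries, and 1 was without replicate 1 or 2 of Pcl1-3 + Epop KO. The call was also lost with only the 2 genotypes in the fit, at log2 fold changes of 3.05 without and 3.11 with the replicate block.

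Loss of Epop gave many more calls where Jarid2 and Aebp2 were lost too. Between Pcl1-3 + Jarid2 + Aebp2 + Epop KO and Pcl1-3 + Jarid2 + Aebp2 KO, 848 IDs rose (5.79%) and 799 fell (5.45%), 1647 in all (11.2%). In cells lacking Pcl1-3 alone, a contrast with no library in common, the same IDs had medians near 0 on Epop loss. The median log2 fold change of the 848 rises was 1.38 in the first background and 0.06 in the second, and that of the 799 falls was -0.73 and -0.06. The IDs were selected in the first background, which favours large values there. The direction was nevertheless shared by 535 of the 848 rises (63.1%), where 52.4% of all tested IDs were above 0. It was shared by 537 of the 799 falls (67.2%), for which the background is the smaller part of IDs below 0. A test of the difference itself, the interaction in the same edgeR fit, called 306 IDs (2.09%), 157 with the higher fold change in cells lacking Pcl1-3 alone (1.07%) and 149 with the lower (1.02%). Of the 848 rises 144 passed the test of the difference, and of the 799 falls 154. That difference contains the contrast in which these IDs were selected, so such an overlap was favoured beforehand.

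These counts also moved with the fit. With the replicate number as a block 3049 IDs were called for Epop loss in the larger knockout and 914 in the test of the difference. With only the genotypes concerned in the fit the numbers were 937 and 89. Without replicate 1 of Pcl1-3 + Jarid2 + Aebp2 KO 1085 IDs were called for Epop loss in that background, and without replicate 3 of Pcl1-3 + Jarid2 + Aebp2 + Epop KO 1088. The test of the difference called 193 IDs without replicate 3 of Pcl1-3 KO and 194 without replicate 2 of Pcl1-3 + Jarid2 + Aebp2 + Epop KO. The IDs that had changed in Pcl1-3 + Epop KO against WT went both ways on Epop loss in the larger knockout. Of the 577 risen IDs 58 rose (10.1%) and 39 fell (6.76%) there. Of the 538 fallen IDs 77 rose (14.3%) and 66 fell (12.3%), with both medians at 0.00. Over all tested IDs 5.79% rose and 5.45% fell, so both sets held a higher share of calls than the background in both directions, the fallen set more so.

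**Figure D5:**
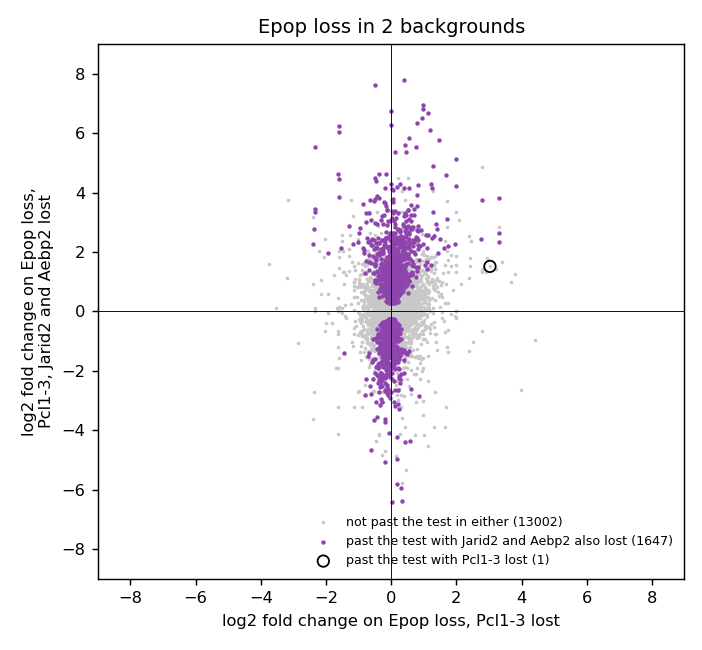
Log2 fold change on Epop loss in cells lacking Pcl1-3 (horizontal axis) against that in cells lacking Pcl1-3, Jarid2 and Aebp2 (vertical axis), on equal scales, 1 point per tested ID, with the 1647 IDs called in the larger knockout in purple and the 1 ID called in the smaller circled. The purple points spread along the vertical axis, on which they were selected, and lie near 0 on the horizontal one.

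Pcl1-3 + Epop KO differed far more from Suz12 KO, which removes a core subunit, than from WT. Against Suz12 KO 3031 IDs were higher (20.7%) and 3161 lower (21.6%) in Pcl1-3 + Epop KO, 6192 in all (42.3%), by the same edgeR fit. Lower levels were the larger: 2000 IDs were over 2-fold lower and 841 over 2-fold higher. The 577 IDs risen against WT had a median log2 difference from Suz12 KO of 0.46, and the 538 fallen IDs one of -1.05, beside 0.03 over all tested IDs. Both comparisons use the same Pcl1-3 + Epop KO libraries, so these values describe the sets and are not a second test of them. ENSMUSG00000069049.11 and ENSMUSG00000068457.14, with no read in Pcl1-3 + Epop KO, were among the lower IDs, while the log2 differences of ENSMUSG00000022941.8 and ENSMUSG00000028337.14 were 0.94 and -0.87 and did not pass the test (edgeR adjusted p = 0.354 and 0.102).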

How the data were processed

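Gene-level read counts came from total RNA libraries of 24 samples (TruSeq kit, per the labels' protocols). The authors deposited 1 table of whole-number counts per library. STAR, HTSeq and mm10 appear in the submitters' processing notes, without versions. With strandedness not given in the sources used here, antisense, overlapping and near-identical genes are uncertain. The deposited peak lists hold other values, positions in base pairs, and no scores.

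From 55450 IDs (24056 without a read anywhere), filterByExpr kept 14650. They were fitted over all 24 libraries, 1 mean per genotype, with edgeR 4.0.16 (R 4.3.3; TMM scaling, robust quasi-likelihood test), and called at a Benjamini-Hochberg adjusted p under 0.05. CPM are TMM-scaled, apart from the numbers of IDs at 1 CPM per library, and log2 CPM used a prior count of 2. The script was tested on simulated data. Alternatives used DESeq2 1.42.0, limma-voom 3.58.1, RLE scaling, no filter, other samples and a replicate block.

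Deviations of same-numbered libraries correlated at 0.200, 0.462 and 0.710 with Pcl1-3 KO and at 0.513, 0.223 and 0.569 with Suz12 KO, all above 0.1. Those numbers were therefore used as a block, but only in an alternative fit. The main counts come from the fit without a block. Every same-numbered correlation was above 0 in the remaining genotypes too, and the lowest of all was 0.0852 (replicate 3, WT). Yet replicate 1 of Pcl1-3 + Epop KO correlated better with replicate 2 of Pcl1-3 KO (0.39) than with its replicate 1. The same held in Jarid2 + Aebp2 KO (0.338 against 0.266), and replicate 3 was closest to WT replicate 2 (0.115). Those pairings are therefore uncertain. In all other cases the same-numbered library correlated best. The members and lists were chosen with earlier results of these data known. The comparisons that involve other pairs of knockouts, and the counts of gained, lost and absent IDs, were added after the calls had been seen. Named IDs are the 2 highest and 2 lowest fold changes among 1044 called IDs with at least 1 CPM in a group and no overlap between libraries, and the 1 ID called against Pcl1-3 KO. No table used here pairs the IDs with symbols, so 30 gene lists, the targeted genes and genes near peaks could not be tested.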

Additional observations from a re-analysis of the deposited data

Results flagged for a closer look

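The change on loss of Epop differed between 2 backgrounds. By the interaction term of the edgeR fit, 306 of 14650 IDs (2.09%) had a fold change in cells lacking Pcl1-3 that differed from the one in cells lacking Pcl1-3, Jarid2 and Aebp2. The median log2 fold change of the 157 IDs with the higher value in the first background was 1.48 for the difference, and that of the other 149 was -2.06. The count was 193 to 419 with 1 library left out, 699 with no filter on low counts, 507 with DESeq2, 914 with a replicate block and 89 with only the 4 genotypes in the fit. The 2 backgrounds share no library, and the labels do not tell line and genotype apart. The strain label also differs between all 4 genotypes, but its digits count up with the genotypes and may be a filling error.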

How the results depend on the processing

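RLE scaling and a fit without robust estimation kept all 7 counts within 1.5 times. For the comparison with WT (1115 called, 577 risen, 538 fallen), no filter on low counts gave 1810 called and 1046 risen, and limma-voom 378 risen. A fit of the 2 genotypes alone gave 155 called (34 risen, 121 fallen). Replicates 1 and 2 alone, added after seeing the data, gave 622 called and 236 risen. A replicate block gave 2730 called (1448 risen, 1282 fallen), and with the 2 genotypes alone 141 (41 risen, 100 fallen). The deviations of same-numbered libraries of these 2 genotypes correlated at 0.286, 0.139 and 0.0852, and replicate 3 of the knockout correlated best with WT replicate 2 (0.115), so the numbers were not taken as pairs here. With 1 library left out, 462 to 1831 IDs were called, 176 to 1098 risen and 286 to 733 fallen. Against Pcl1-3 KO the count was 1, and it became 20 with no filter, 3 with DESeq2, 2 with the block, 0 with only the 2 genotypes (with or without the block), 0 with replicates 1 and 2 alone, and 0 to 1 with 1 library left out. Against Suz12 KO it stayed within 1.5 times of 6192 under every alternative. For Epop loss with Pcl1-3, Jarid2 and Aebp2 lost it was 3049 with the block, 937 with only those genotypes, and 1085 to 2077 with 1 library left out. The difference between backgrounds gave 699 IDs with no filter, 507 with DESeq2, 914 with the block, 89 with only the 4 genotypes and 193 to 419 with 1 library left out. The causes were not tested. The share of rises also risen in the second pair was 47.3% without replicate 3 of the knockout. No named ID changed direction, which was nearly fixed beforehand because their groups did not overlap. Falls outnumbered rises under several settings, among them RLE scaling (537 risen, 542 fallen), limma-voom (378 and 527) and the 2 genotypes alone. The planned count of genes near SUZ12 peaks was not run, since the IDs have no symbols or positions here. Depth limits low IDs: those under 0.5 CPM were called only past 2-fold.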
